A study of Mus musculus with 18 samples.

Results

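The zona pellucida genes Zp1, Zp2 and Zp3 and the ovastacin gene Astl were followed in whole mouse ovaries labelled Elavl2 knockout or wild type, at 3 stages around birth. The 4 genes were chosen by name: every non-control probe whose gene name in the scanner files was Zp1, Zp2, Zp3 or Astl was taken. That gave 6 probes of 41174 on the array, and all 6 passed the filter on dim signals, so that the 4 genes stand among 19278 genes tested. The filter asked for a signal well above background on every array of some group, and Astl met this only in newborn wild type. The groups were ovaries of Elavl2 knockout (KO) and wild type (WT) mice, labelled XX gonads, taken from embryos at E15.5 and E17.5 (days of gestation) and from newborns at P0. Each of the 6 groups held 3 samples, and each of the 18 samples was read on its own 1-colour array. The sample type is given as mixed, the labels name no strain, and nothing in them says whether replicates were separate animals. A p-value here therefore covers the spread among the samples read, which may be technical. The product of Elavl2 is an ELAV-type protein that binds RNA, and the part of the gene that was deleted is not given in the sources used here.

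The zona pellucida is the extracellular coat of the egg. In the mouse it is built by the growing oocyte from 3 secreted glycoproteins, of which ZP2 and ZP3 form filaments and ZP1 cross-links them. ZP2 also carries the site to which sperm bind. Ovastacin, a secreted metalloprotease of the astacin family, is stored in the cortical granules of the egg and cleaves ZP2 after fertilization, which ends sperm binding. In mouse oocytes the 3 zona genes depend on FIGLA, a basic helix-loop-helix factor that pairs with E proteins and binds the E-box, a 6-base motif written CANNTG. Oocytes enter primordial follicles around birth.

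The probes that carry the values below are shown 5′ to 3′ because 2 of the genes have a pair of probes, which allows a repeat of each measurement. Coordinates come from the scanner files (mm9). The Zp1 probe (A_51_P201697) lies at chr19:10990981-10991040 on the minus strand. The Zp2 probe used for the gene (A_52_P331981) lies at chr7:127279069-127279225 and the other Zp2 probe (A_51_P177304) at chr7:127279266-127279413, both on the minus strand. Each Zp2 position covers more bases (157 and 148) than the 60 of the probe. The Zp3 probe used (A_51_P152973) lies at chr5:136463460-136464310, a span of 851 bases, and the other (A_52_P42762) at chr5:136464281-136464340, both on the plus strand. Capitals mark the 30 bases that both Zp3 probes hold, so these are not fully separate measurements. The Astl probe (A_51_P370155) lies at chr2:127182509-127182568 on the plus strand. Whether a probe lies in a coding exon or an untranslated part was not analysed here.
Zp1, A_51_P201697: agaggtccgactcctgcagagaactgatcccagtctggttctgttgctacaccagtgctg
Zp2, A_52_P331981: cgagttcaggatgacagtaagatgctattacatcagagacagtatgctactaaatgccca
Zp2, A_51_P177304: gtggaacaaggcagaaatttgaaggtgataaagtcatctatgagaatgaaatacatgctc
Zp3, A_51_P152973: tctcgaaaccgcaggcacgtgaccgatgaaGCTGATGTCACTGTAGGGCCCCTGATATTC
Zp3, A_52_P42762: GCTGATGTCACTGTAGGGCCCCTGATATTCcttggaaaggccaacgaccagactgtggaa

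The sequence before the start site is shown for the members that fell together at P0 and had an entry in the RefSeq promoter table (build GRCm38.p6), which were 2 of the 4, Zp3 and Astl. The 250 bases before the start are printed, with every CANNTG in capitals. This motif reads the same way on both strands when N is free, so 1 search covered both, and CACGTG is 1 form of it. For Zp3 the window is chr5:135979855-135980104 on the plus strand. It held 3 matches, CACGTG from 181 to 176 bases, CAGATG from 134 to 129 bases and CAGGTG from 55 to 50 bases before the start. Astl has 2 listed start sites, with windows at chr2:127338389-127338638 and chr2:127341386-127341635, both on the plus strand. The window of start site 1 held 0 matches and is not printed, while that of start site 2 held 3 matches, all CAGGTG, from 109 to 104, from 83 to 78 and from 59 to 54 bases before the start. Of 32851 windows of the same length in the table, 66.2% held at least 1 CANNTG, 12.2% held at least 3 and 6.02% held CACGTG. A match is a description of the letters, and no binding was measured.
Zp3, before the start: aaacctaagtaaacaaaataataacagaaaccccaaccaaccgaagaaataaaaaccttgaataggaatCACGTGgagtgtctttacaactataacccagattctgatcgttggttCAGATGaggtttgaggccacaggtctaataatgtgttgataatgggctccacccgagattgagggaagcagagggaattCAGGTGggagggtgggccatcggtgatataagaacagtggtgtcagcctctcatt
Astl, before start site 2: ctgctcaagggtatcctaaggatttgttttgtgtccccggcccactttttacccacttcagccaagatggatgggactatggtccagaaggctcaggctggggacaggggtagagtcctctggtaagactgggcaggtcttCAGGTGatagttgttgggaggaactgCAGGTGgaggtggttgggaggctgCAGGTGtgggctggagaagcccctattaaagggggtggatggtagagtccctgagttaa

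A level is the log2 of the background-subtracted intensity minus the 75th percentile of its array, so a level of 0 is that percentile. A change is the difference of such levels, KO against WT unless stated, from 1 limma model over all 18 arrays with the day of the scan as a term. A gene is said to have risen or fallen when its Benjamini-Hochberg adjusted p over all genes tested was under 0.05, and errors of changes are standard errors. Between 63.1% and 75.7% of probes were well above background per array, and replicate arrays correlated across genes with r from 0.9649 to 0.9948. All E15.5 arrays and replicate 3 of both E17.5 groups were scanned on 1 day, and the other arrays on another. The arrays sat on 7 slides. At P0 KO replicates 1 and 2 shared a slide, KO replicate 3 sat with E17.5 WT arrays, and the 3 WT arrays shared another slide. No slide held both genotypes at P0, so slide and genotype cannot be told apart there. The P0 calls of the members below were the same with the slide as a random block. That block used 1 correlation for all genes (0.081) and cannot separate the slide from the genotype at P0. Slide 3 held E15.5 KO replicate 3 and both E17.5 replicates 3, and these arrays read high for Zp1 and Astl, as the values below show. Elavl2 averaged 2.00 ± 0.12 in KO and 2.11 ± 0.16 in WT at E15.5, 2.65 ± 0.41 in KO and 3.51 ± 0.14 in WT at E17.5, and 3.16 ± 0.20 in KO and 4.52 ± 0.06 in WT at P0 (log2 level, SD, n = 3 each). Its changes were -0.11 at E15.5 (adjusted p = 0.75), -0.87 at E17.5 (adjusted p = 0.0045) and -1.36 at P0 (adjusted p = 9.08e-06, limma). Its signal in the ovaries labelled KO, as a share of the WT signal, was 92.6% (E15.5), 54.9% (E17.5) and 39.0% (P0). Since the deleted part is not known here, this probe does not settle whether the label holds, and KO stands for the label.

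At P0 all 4 genes were lower in KO than in WT ovaries. Zp3 and Zp1 were 39.9-fold and 20.3-fold lower, Zp2 was 4.39-fold lower, and Astl was at least 23.9-fold lower with its KO signal not well above background on any array. At this stage 34.4% of the 19278 genes passed the test, 18.3% as higher and 16.2% as lower, and the 4 genes that fell are read against that share. Astl is counted among them, though it passed the filter only through P0 WT. The median change of all genes was 0.00 (-0.0012), against a median of -4.74 over the 4 members. In this fit the change of Zp3 was the lowest of all 19278 genes. In whole ovaries, fewer expressing cells and less RNA per cell cannot be told apart.

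Zp3, the filament partner of ZP2, had log2 levels of -2.93, -2.37 and -1.83 in the P0 KO ovaries, against 2.99, 3.04 and 2.79 in the P0 WT ovaries. The highest KO array lay over 4 log2 units below the lowest WT array. The change was -5.32 ± 0.42 (adjusted p = 3.34e-06), which leaves 2.51% of the WT signal. The other Zp3 probe read -2.61, -2.26 and -1.40 in KO and 3.39, 3.37 and 3.35 in WT, a change of -5.46 ± 0.56 (adjusted p = 2.58e-05).

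Zp1, the cross-linker of the coat, had levels of -4.38, -4.08 and -3.51 in P0 KO ovaries, against 0.55, 0.41 and 0.10 in P0 WT ovaries. The groups were far apart and each was tight, with SDs of 0.44 in KO and 0.23 in WT. Its change was -4.35 ± 0.39 (adjusted p = 8.75e-06), which leaves 4.92% of the WT signal.

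Astl read -6.37, -5.94 and -5.77 in P0 KO ovaries, none of them well above background, against -0.91, -0.83 and -0.93 in P0 WT ovaries, where all 3 arrays were above it. The WT arrays agree within 0.05 (SD), and the KO value is only an upper limit. The fold of at least 23.9 sets the WT mean against, on each KO array, the higher of the probe's own signal and the lowest signal well above background. The fitted change was -5.14 ± 0.60 (adjusted p = 6.23e-05), and it is no bound. Astl passed the filter only through P0 WT, the group where it is high. Its tests that involve this group, here and below, are thus not on a par with those of the other members. With normexp background correction, which lifts the dimmest signals, and quantile normalization, the Astl change was -2.62.

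Zp2, the sperm-binding component and the substrate of ovastacin, had levels of -0.73, -0.78 and -0.14 in P0 KO ovaries, against 1.67, 1.70 and 1.39 in P0 WT ovaries. The groups did not overlap, but the KO arrays stayed well above background on all 3. The change was -2.13 ± 0.58 (adjusted p = 0.0133), which leaves 22.8% of the WT signal. The other Zp2 probe read -1.40, -1.38 and -0.64 in KO and 0.97, 0.97 and 0.63 in WT, a change of -2.00 ± 0.65 (adjusted p = 0.0332). For every member, KO replicate 3 was the highest of the P0 KO arrays.

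**Figure D1:**
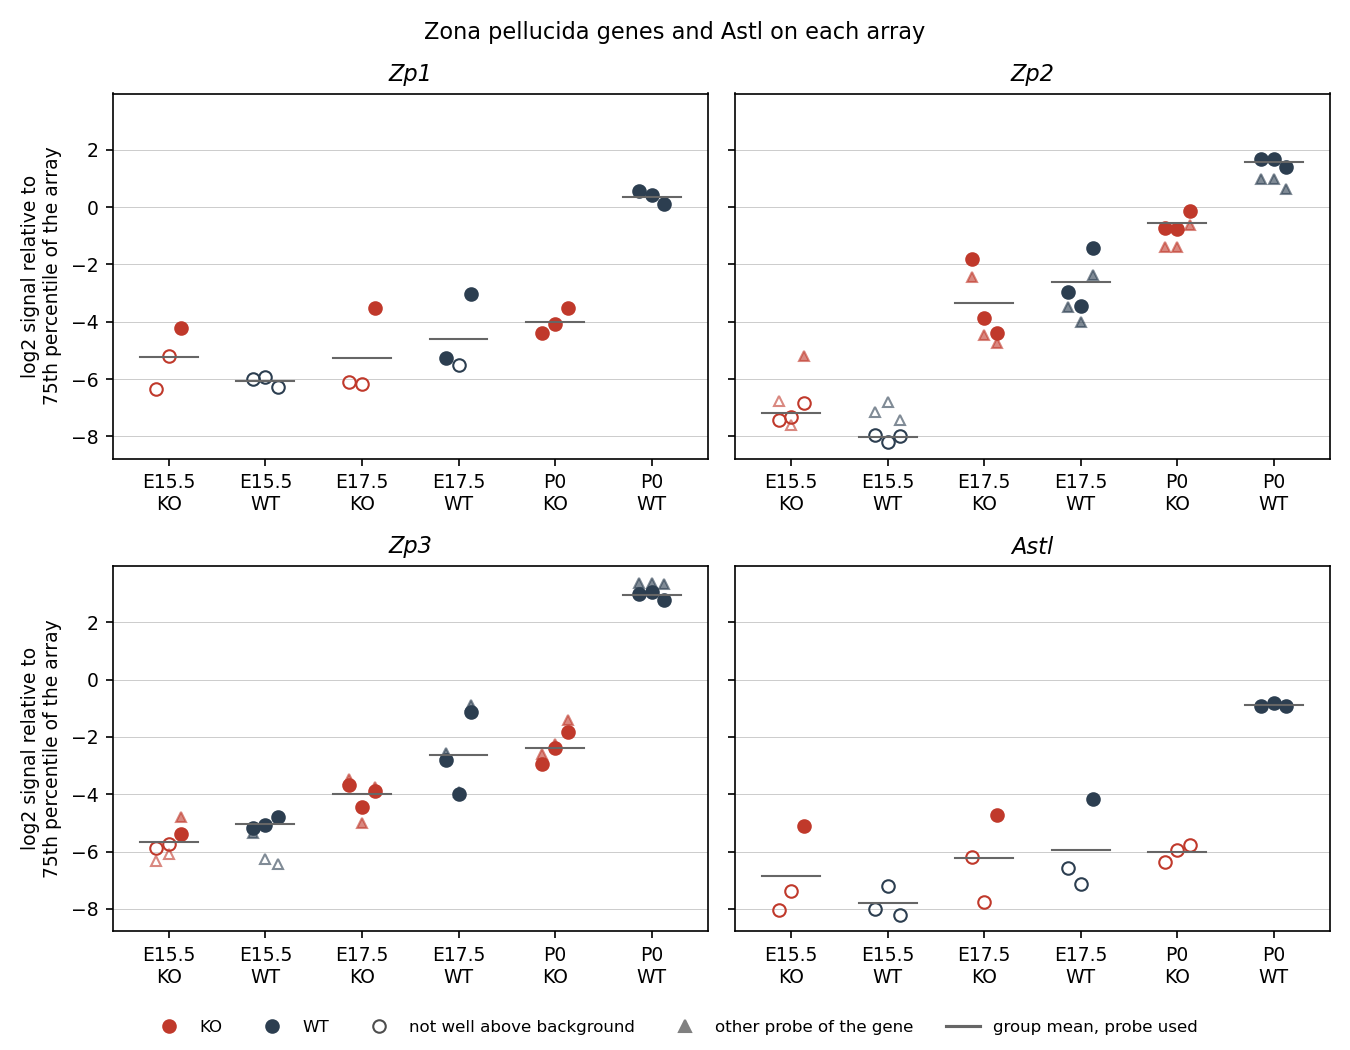
Level of each gene (log2 signal relative to the 75th percentile of the array) on each of the 18 arrays, in KO and WT at E15.5, E17.5 and P0. Circles are the probe used, triangles the other probe, open symbols are not well above background and bars are group means. At P0 the KO arrays of every gene lie below the WT arrays, and at E17.5 the genotypes overlap.

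The sizes of the fall at P0 were compared between members. Within each P0 array the difference between a pair of members was taken, and these differences were compared between genotypes for all 6 pairs. The change of Zp2 minus that of Zp3 was 3.18 on the log2 scale, the change of Zp1 minus that of Zp2 was -2.21, and the change of Zp1 minus that of Zp3 was 0.97. In these pairs, and in those of Zp1 and of Zp2 with Astl, the KO and WT arrays did not overlap, and each gave a two-sided exact permutation p of 0.1, the smallest that 3 against 3 arrays allow (adjusted p = 0.12 over 6 pairs). The groups overlapped for Zp3 with Astl (exact permutation p = 0.4). With 3 against 3 arrays no pair could pass the threshold of 0.05, so this test cannot decide whether the falls differed in size. For pairs with Astl no size is given, since its KO signal was not well above background on any array. Their overlap and p rest on that signal.

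At E17.5 none of the 4 genes passed the limma test between genotypes, and 1 of 4, Zp3, had an unadjusted p under 0.05. Across all genes 4.19% passed at this stage, 2.86% as lower. With same-numbered arrays paired in a replicate block, 168 genes were called in place of 807, and still none of the 4. Pairing by number is not settled at this stage, since KO replicate 1 deviated more with WT replicate 2 (r = 0.282) than with WT replicate 1 (0.121). Zp3 read -3.69, -4.44 and -3.88 in KO and -2.80, -4.01 and -1.13 in WT, a change of -1.36 ± 0.42 (adjusted p = 0.0857). Its highest KO array overlapped with the lowest WT array. The change of Zp3 was -1.77 without KO replicate 1 (adjusted p = 0.0337) and -1.90 without WT replicate 2 (adjusted p = 0.030), so that each of these arrays decides the call.

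Zp2 read -1.80, -3.86 and -4.39 in KO and -2.95, -3.43 and -1.42 in WT at E17.5, a change of -0.75 ± 0.58 (adjusted p = 0.476). The range within each genotype was wider than the difference between them. Among the arrays scanned on the first day, 2 per genotype, KO minus WT was 0.36, and for the pair of replicates 3 it was -2.97. Without either replicate 3, or without slide 3, the change was 0.36, and without KO replicate 1 it was -1.65 (adjusted p = 0.0358). The same within-day differences for Zp3 were -0.66 and -2.75, for Zp1 -0.75 and -0.49, and for Astl -0.12 and -0.54.

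Zp1 at E17.5 read -6.11, -6.17 and -3.53 in KO, of which only replicate 3 was well above background, and -5.27, -5.52 and -3.04 in WT, of which replicates 1 and 3 were. Astl read -6.19, -7.75 and -4.71 in KO and -6.57, -7.14 and -4.16 in WT, with only replicate 3 of each genotype above background. In both genes the replicate 3 arrays, which share slide 3, stood above the others of their genotype. The changes were -0.66 for Zp1 (adjusted p = 0.342) and -0.26 for Astl (adjusted p = 0.833).

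At E15.5 the members were at or near background in both genotypes. Zp3 read -5.87, -5.75 and -5.40 in KO, of which only replicate 3 was above background, and -5.18, -5.08 and -4.81 in WT, where each array was. The other Zp3 probe was above background on 1 of 3 arrays in each genotype. The Zp2 probe used was above background on no array (-7.41, -7.34 and -6.85 in KO, -7.93, -8.18 and -7.97 in WT), and the other Zp2 probe on KO replicate 3 alone (-5.18). Zp1 read -6.34, -5.19 and -4.20 in KO and -5.99, -5.93 and -6.27 in WT, and Astl read -8.04, -7.37 and -5.10 in KO and -7.99, -7.21 and -8.20 in WT. In both, the only array above background was KO replicate 3, the KO array on slide 3. None of the 4 passed the limma test (adjusted p from 0.358 to 0.568, and 0 of 4 at an unadjusted p under 0.05), against 1.62% of all genes. Zp1 passed without KO replicate 1 alone (1.37, adjusted p = 0.0296).

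Onset was read as the earliest stage at which all 3 arrays of a group showed the gene's probe well above background. In KO ovaries Zp3 and Zp2 reached this at E17.5, Zp1 at P0 and Astl at none of the 3 stages. In WT ovaries Zp3 reached it at E15.5, Zp2 at E17.5, and Zp1 and Astl at P0. By the other Zp3 probe the onset was E17.5 in both genotypes. Onset is set by each probe's sensitivity as well as by the RNA, so it is compared here between genotypes and not between genes.

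From E17.5 to P0 3 of the 4 genes rose in KO and all 4 in WT, and the fitted increases were smaller in KO. In KO the changes were 2.11 for Zp1 (adjusted p = 0.0017), 2.84 for Zp2 (adjusted p = 0.0032), 2.03 for Zp3 (adjusted p = 0.0032) and 1.01 for Astl (adjusted p = 0.238). In WT they were 5.79 for Zp1 (adjusted p = 1.48e-06), 4.22 for Zp2 (adjusted p = 0.000202), 5.99 for Zp3 (adjusted p = 1.80e-06) and 5.89 for Astl (adjusted p = 2.49e-05). Astl was not well above background on any KO array at P0, and its WT value starts from a signal above background on 1 of 3 arrays at E17.5. With normexp and quantile normalization the KO changes were 0.59 for Zp1, 1.16 for Zp3 and 0.14 for Astl, and the WT changes were 3.64 for Zp1 and 2.67 for Astl. The KO change of Zp1 was 1.28 without the scan day term (adjusted p = 0.193), and that of Astl lay between 0.51 and 1.62 when each array was left out. Over all genes 18.2% rose in KO and 22.1% in WT in this interval. Under array median scaling the share of calls that were higher was 31.4% in place of 51.1% in WT.

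The difference between these increases was tested as an interaction, which 10.4% of all genes passed, 6.14% with a negative sign. Positive values made up 41.1% of these calls, and 68.6% under array median scaling. It was -3.96 ± 0.59 for Zp3 (adjusted p = 0.00215), -3.68 ± 0.55 for Zp1 (adjusted p = 0.00228) and -4.88 ± 0.85 for Astl (adjusted p = 0.0048). With normexp and quantile normalization the Astl value was -2.53. For Zp2 it was -1.39 ± 0.82 (adjusted p = 0.297), and without either E17.5 replicate 3 it was -2.50 (adjusted p = 0.0363). The smaller KO increase was thus called for 3 genes, among them Astl, which passed the filter only through P0 WT. The call for Zp2 depends on replicate 3. The Zp1 value had an adjusted p of 0.0559 without the scan day term.

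**Figure D2:**
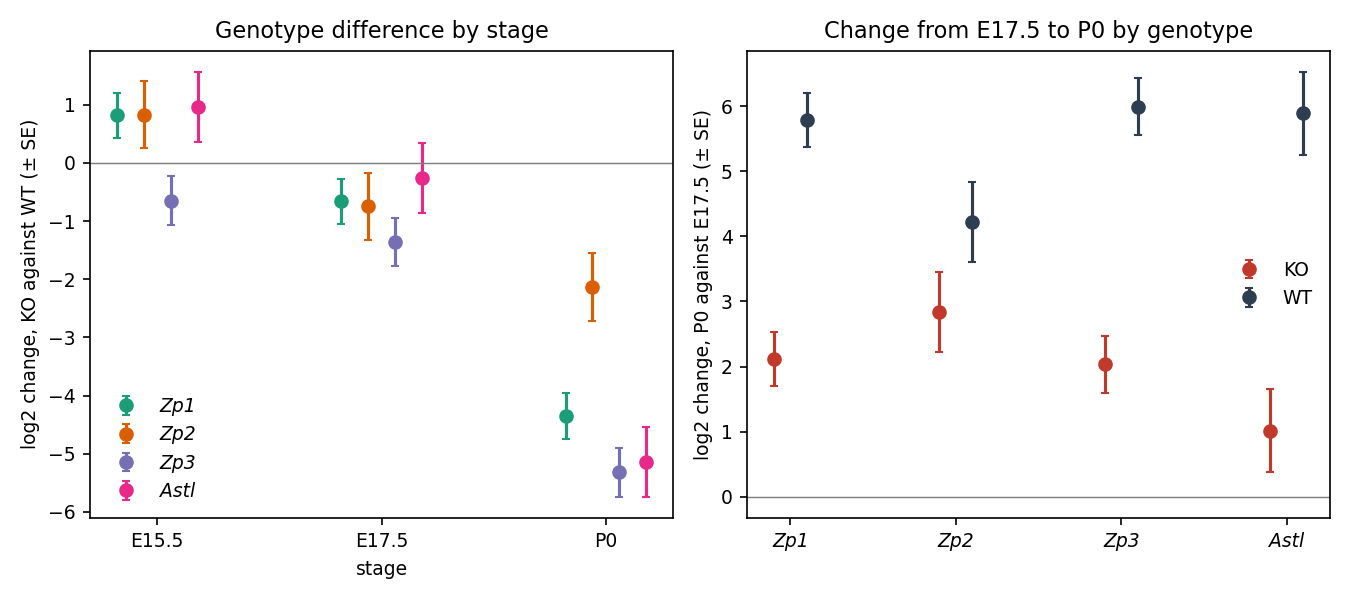
Left, change of each gene (log2, KO against WT) at the 3 stages. Right, change from E17.5 to P0 in KO and in WT (log2). Points are fitted values and bars are SE. At P0 the genotype changes lie between -5.32 and -2.13, and the WT increases exceed the KO increases for every gene.

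Between E15.5 and E17.5 the comparison lies across scan days, and E17.5 replicate 3 is the only array of each genotype that shares the day of the E15.5 arrays. In KO the fitted changes were 3.92 for Zp2 (adjusted p = 0.00199, at least 5.40-fold), 2.49 for Zp3 (adjusted p = 0.00439), 1.63 for Zp1 (adjusted p = 0.0297) and 2.27 for Astl (adjusted p = 0.0434). In WT they were 5.50 for Zp2 (adjusted p = 0.000214, at least 12.8-fold), 3.20 for Zp3 (adjusted p = 0.000875), 3.11 for Zp1 (adjusted p = 0.000681) and 3.49 for Astl (adjusted p = 0.0048). In E17.5 WT the Zp1 signal was above background on 2 of 3 arrays and the Astl signal on 1 of 3. Over all genes 11.8% rose in KO and 15.3% in WT, that is 2277 and 2947 genes. Under array median scaling 991 rose in KO and 1598 in WT, and all calls in WT were 1038 without WT replicate 3, against 5078. Zp2, dark at E15.5 and above background on all 3 arrays of both genotypes at E17.5, was called as higher whichever single array was left out. Its size moved with replicate 3. The KO change was 6.14 without KO replicate 3 and 2.81 without WT replicate 3, and the WT change was 3.28 without WT replicate 3.

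For Zp1 and Astl these changes rest on the scan day term. Without it the KO changes were -0.03 for Zp1 and 0.62 for Astl, and the WT changes were 1.45 for Zp1 and 1.84 for Astl, with adjusted p from 0.129 to 0.983. In KO both genes were above background on 1 of 3 arrays at either stage. The KO call of Zp1 was also lost without E15.5 KO replicate 2 (1.65), E17.5 KO replicate 3 (1.46) or E17.5 WT replicate 3 (1.71), and that of Astl in 16 of the 18 fits that left out 1 array. The WT call of Astl was lost without E17.5 WT replicate 3 (3.21). With normexp and quantile normalization the KO changes lay between 0.41 and 1.09 and the WT changes between 0.59 and 1.60 over the 4 genes, with the KO change of Zp2 not called. The WT change of Zp3 was 1.80 without WT replicate 3 (adjusted p = 0.102), and the KO change of Zp3 was 3.88 without KO replicate 3.

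The P0 KO ovaries were also set against the WT ovaries of the earlier stage, E17.5. Zp2 was higher in P0 KO by 2.09 (adjusted p = 0.0187) and Zp1 by 1.45 (adjusted p = 0.0165), while Zp3 differed by 0.68 (adjusted p = 0.261) and Astl by 0.76 (adjusted p = 0.39). Of all genes 18.3% were higher in this comparison. The Zp2 call was lost without P0 KO replicate 3 (1.88), E17.5 WT replicate 1 (1.86) or E17.5 WT replicate 2 (1.52), and the Zp1 call without P0 KO replicate 3 (1.21) or E17.5 WT replicate 2 (1.39). Zp3 was called without either E17.5 replicate 3 (1.02). The Zp1 call rests on the scan day term, without which the difference was 0.62 (adjusted p = 0.569, limma). The Zp1 ranges of P0 KO and E17.5 WT overlapped. P0 WT was the highest group for every gene, and Astl passed the filter only through that group. The KO and WT ranges overlapped at E17.5 for every gene.

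None of the measured regulators of zona genes passed the limma test as lower at P0, also at an unadjusted p under 0.05. Of 12 measured genes of this list (FIGLA and other oocyte factors, E proteins and their ID inhibitors), 3 rose, 0 fell and 9 did not pass, with a median change of 0.08. Among all genes 18.3% rose and 16.2% fell at P0. Figla, whose product drives the zona genes in mouse oocytes, averaged 4.06 ± 0.32 in KO and 4.11 ± 0.09 in WT (SD, n = 3 each), a change of -0.05 ± 0.20 (adjusted p = 0.874). Its change was 0.09 under scaling by the array median. The genes that rose were Id2 (0.77 ± 0.09), Id3 (0.76 ± 0.09) and Id4 (0.72 ± 0.14), with adjusted p of 7.83e-05, 9.14e-05 and 0.00156. Id1 was not called at P0, with 4.75 ± 0.16 in KO and 4.66 ± 0.07 in WT (SD). Earlier it was lower in KO, with 2.99 against 3.93 in WT at E15.5 and 4.63 against 5.44 at E17.5. Of the 12 genes 2 fell at E15.5, where 1.62% of all genes passed, and 1 at E17.5, where 2.86% fell. ID proteins bind E proteins and keep them from DNA. Nobox, a homeobox factor of oocytes, averaged 3.90 ± 0.28 in KO and 4.36 ± 0.03 in WT (change -0.46, adjusted p = 0.361), and Lhx8, another, averaged 3.89 ± 0.28 in KO and 4.07 ± 0.11 in WT (change -0.19, adjusted p = 0.737). Figla, Nobox, Lhx8 and Id1 are named for their roles, after their values were seen.

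Genes of early oocyte growth fell with the zona genes. Of 18 measured, 15 fell, 0 rose and 3 did not pass at P0, with a median of -3.10, where 16.2% of all genes fell. Bmp15, named for this limit and not by its rank, was not well above background on any KO array at any stage. It passed the filter only through WT, so at P0 it could not be called as higher in KO. The 6 with the smallest adjusted p were Npm2 (-5.04 ± 0.22), a histone chaperone of the egg, Zar1 (-4.80 ± 0.36), an RNA-binding protein of oocytes, Padi6 (-4.44 ± 0.54), a component of the cytoplasmic lattices, Gdf9 (-3.30 ± 0.27), an oocyte growth factor, Rfpl4 (-2.90 ± 0.20) and Gja4 (-1.47 ± 0.13), the gap junction protein of oocytes. Their adjusted p lay between 8.67e-08 and 8.22e-05. At E17.5, where none of the zona genes was called and 2.86% of all genes fell, 8 of the 18 fell and 0 rose, with a median of -1.16. With the replicate block 0 were called (12 lower at an unadjusted p under 0.05), and without slide 3 also 0 (9 lower at an unadjusted p).

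Other proteins of the egg surface gave a mixed picture. Of 13 measured, 3 rose, 6 fell and 4 did not pass, with a median of -0.07, which was 0.06 under scaling by the array median. The shares over all genes were 18.3% risen and 16.2% fallen. Oosp1, an oocyte-secreted protein, was at least 9.06-fold lower in KO, where its signal was not well above background (adjusted p = 1.22e-08). It was well above background in P0 WT alone and passed the filter only through that group, so at P0 it could be called only as lower. Izumo1r, the egg receptor for the sperm protein IZUMO1, fell by 1.52 ± 0.28 on the log2 scale (adjusted p = 0.00139), and Cd9, a tetraspanin needed for gamete fusion, by 0.66 ± 0.11 (adjusted p = 0.000504). Rab27a (-1.89 ± 0.18) and Rab3a (-1.25 ± 0.12), small GTPases of granule secretion, fell, each with an adjusted p of 1.12e-05. Cd81, a second tetraspanin of the egg surface, rose by 0.50 ± 0.10 (adjusted p = 0.00293).

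Relatives of the members by protein family were also counted. Of 8 measured genes of other ZP-domain proteins, 0 rose and 3 fell, with a median of -0.23, which was 0.02 after quantile normalization. These counts, and those of the proteases below, stand beside 18.3% risen and 16.2% fallen among all genes. Umodl1 fell by 3.76 ± 0.26 (adjusted p = 1.56e-06), and Umod was at least 4.02-fold lower and Cuzd1 at least 1.11-fold lower, each with a KO signal not well above background. Cuzd1 was well above background in P0 WT alone and passed the filter only through that group, so at P0 it could be called only as lower. With normexp and quantile normalization Cuzd1 lost its call (adjusted p = 0.0668), and Zpld1, named after its values were seen and not called otherwise, was higher by 0.89 (adjusted p = 0.00334). Of 3 other astacin proteases, Mep1b fell by 2.03 ± 0.39 (adjusted p = 0.00175), Mep1a had a change of -0.68 ± 0.23 (adjusted p = 0.0374, and from 0.0768 to 0.157 under 3 other scalings), and Bmp1, which cleaves procollagen, rose by 0.30 ± 0.08 (adjusted p = 0.010, and 0.0568 after normexp and quantile normalization).

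No pan-germ cell, pregranulosa, stroma or endothelial marker was called as lower at P0 in the model used here (limma), with 1 pan-germ cell marker lower at an unadjusted p under 0.05. Over all genes 18.3% rose and 16.2% fell at P0, and the counts of these short lists are read against those shares. Of 14 pan-germ cell markers 5 rose and 0 fell at P0, with a median of 0.22, and their summed level lay between 7.18 and 7.46 in KO and between 7.03 and 7.16 in WT (log2). After quantile normalization the count was 5 risen and 1 fallen. Of 10 pregranulosa markers 5 rose and 0 fell (sums from 6.83 to 7.04 in KO and from 6.54 to 6.74 in WT), and of 8 endothelial markers 6 rose and 0 fell (from 3.57 to 3.80 in KO and from 3.16 to 3.39 in WT). Of 8 stroma markers 3 rose and 0 fell (from 7.91 to 8.27 in KO and from 7.93 to 8.13 in WT). Of 8 macrophage markers 2 rose and 0 fell (from 1.92 to 2.10 in KO and from 1.74 to 1.89 in WT). None of 8 red cell markers passed (from 5.997 to 6.180 in KO and from 5.473 to 7.096 in WT), and Hbb-bh1 and Hba-x were not well above background in either genotype. Of 4 Sertoli markers 1 rose and 1 fell, and of 5 markers of mesonephros and kidney 0 rose and 2 fell. Their part in the P0 result was not tested. At E17.5 the pan-germ cell markers had a median of -0.32, with 1 risen and 2 fallen of 14, where 4.19% of all genes passed in either direction. With the replicate block 0 rose and 1 fell, and without slide 3 none was called (1 higher and 2 lower at an unadjusted p under 0.05, limma), with a median of -0.13.

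**Figure D3:**
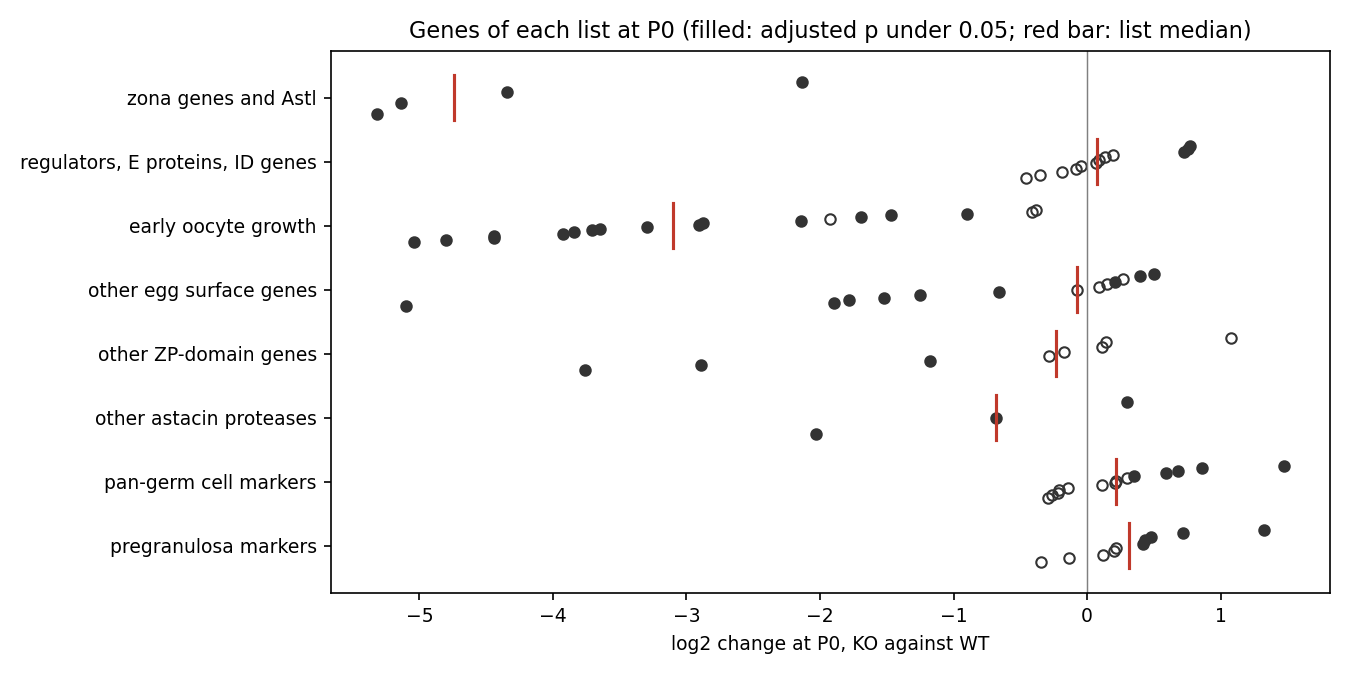
Change at P0 (log2, KO against WT) of every measured gene of 8 lists, filled where the adjusted p was under 0.05, with the list median as a bar. The 3 zona genes, Astl and the early oocyte growth genes lie mostly below -1, and the regulators lie between -0.46 and 0.77.

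Over the 18 arrays the levels of the members correlated with each other, as a description of points that share groups, slides and scan days. Pearson's r was 0.98 between Zp1 and Astl, 0.94 between Zp1 and Zp3, 0.92 between Zp3 and Astl and 0.88 between Zp2 and Zp3. It was lower between Zp1 and Zp2 and between Zp2 and Astl, at 0.77 each. Zp2 followed Nobox (0.95) and Figla (0.93), while Zp3, Zp1 and Astl correlated with Figla at 0.69, 0.56 and 0.58. With the level of Elavl2 r was 0.92 for Zp3, 0.91 for Zp2 and 0.79 each for Zp1 and Astl.

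The genes whose levels were most like each member's were found by the same measure. For Zp3 these were Gm11545 (r = 0.988), G3bp2 (0.988), Gdf9 (0.987), Unc13c (0.986) and Ak8 (0.981). For Zp2 they were Ankrd36 (0.992), Nexn (0.989), Cpsf4l (0.988), Trp63 (0.987) and Ooep (0.987), and Ooep encodes a protein of the egg's subcortical complex. For Zp1 they were 4930449I24Rik (0.972), Tsga10ip (0.968), Tmem214 (0.964), Tmc5 (0.962) and Slc35f3 (0.961), and for Astl Zfp57 (0.973), Krtap5-1 (0.968), Hnf4aos (0.965), Igdcc3 (0.959) and Tmc5 (0.958). Tmc5 was the only gene in more than 1 of these lists, and it also led the genes most like all 4 members on average (mean r = 0.937), ahead of Cd164l2 (0.936) and Osgin1 (0.934). After quantile normalization 3 of the 5 genes for Zp1, 2 for Zp2, 3 for Zp3 and 4 for Astl were again in the top 5, and 6 of the 8 for all members.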

How the data were processed

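Total RNA of whole ovaries was read on Agilent 4x44K mouse arrays of 1 colour. The scanner files the authors deposited give each spot an intensity with its background already subtracted. They name Feature Extraction 10.7.3.1 in their headers, per the file headers, where the submitters' processing notes name 9.5, and nothing given here decides between them. Values in the deposited matrix of the series are log2, differ from the scanner intensity by 1 constant on each array, and were used as an alternative.

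Outlier spots, 51 to 109 on an array, were dropped, log2 was taken, spots of a probe were averaged and the array's 75th percentile was subtracted. No spot was saturated. The filter kept 29201 probes, those that stood well above background on every array of some group, and the brightest probe by mean stood for a gene. Symbols were updated through RefSeq accessions (28223 probes, 1471 names changed). A model in limma 3.58.1 (R 4.3.3) over 18 arrays had 6 groups and the scan day as terms, with 11 residual degrees of freedom. The slide and the scan day were read from the file headers. The script was tested on simulated data. Plots were made in Python 3.11.15 with matplotlib 3.10.9.

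The members and lists were chosen with earlier results of these data known. From each list up to 6 genes with the smallest adjusted p at P0 were eligible to be named, and the 5 genes most alike each member and 8 alike all 4. Same-numbered arrays deviated together at E17.5 (r = 0.121, 0.398 and 0.451, with replicate 3 on another scan day). KO replicate 1 also went with WT replicate 2 (0.282) and KO replicate 2 with WT replicate 1 (0.322). Pairing by number thus cannot be told apart from the scan day there, and the replicate block is given as an alternative. At E15.5 same-numbered arrays did not do so at every number (0.178, 0.205 and -0.117). At P0 the values were small but positive at every number (0.148, 0.101 and 0.081), above the highest of the unmatched pairs (0.031). The main model held no replicate block at any stage.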

Additional observations from a re-analysis of the deposited data

Results flagged for a closer look

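The knockout effect differed between P0 and E17.5 in a test of the difference itself (limma, Benjamini-Hochberg adjusted over all genes) for 3 of the 4 genes. The difference, effect at P0 minus effect at E17.5, was -3.96 for Zp3, -3.68 for Zp1 and -4.88 for Astl on the log2 scale. For Astl the P0 KO signal was not well above background, and for Zp1 and Astl some E17.5 arrays were not. Astl passed the filter only through P0 WT, the group where it is high. Its test is thus not on a par with those of Zp3 and Zp1.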

How the results depend on the processing

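At P0 the 4 members kept direction and call under every alternative in which they were tested: other background correction and scaling, the series matrix, other filters, no scan day term, the slide as a random block, other moderation, only the stage compared, each probe alone, the replicate block, leaving out each array, and, chosen after seeing the data, leaving out slide 3. Astl was not tested under the stricter filter, as only P0 WT had it well above background on all 3 arrays. The series matrix nearly repeats the main scaling (6637 genes called at P0 with either), so its agreement adds little. The changes lay between -5.59 and -4.77 for Zp3, -4.59 and -3.22 for Zp1, -5.26 and -2.62 for Astl, and -2.34 and -1.98 for Zp2, whose highest adjusted p was 0.0425. For results below whose call or direction moved, the cause was not tested.

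KO at E17.5 against E15.5 was the least stable. For Astl the call was lost with quantile normalization (2.02), no filter (2.27), no scan day term (0.62), slide as a random block (2.09) and only the stages compared (2.27), for Zp1 with no scan day term (-0.0276) and only the stages compared (1.63), and for Zp2 with normexp and quantile normalization (1.09). With the replicate block these changes were 1.36 for Zp1 and 1.89 for Astl, neither called, and the block changed no other call of a member where it was fitted, which leaves out P0 KO against E17.5 WT. Without the scan day term the WT changes over that interval were 1.45 for Zp1 and 1.84 for Astl, the KO change of Zp1 from E17.5 to P0 was 1.28, its interaction -3.68, and P0 KO against E17.5 WT 0.62 for Zp1 and -0.0691 for Astl, none called. That last comparison was 2.09 for Zp2 with only the stages compared, not called, and 1.02 for Zp3 without slide 3, called. The Zp2 interaction was called with normexp and quantile normalization (-1.54) and without slide 3 (-2.50). Uncalled genotype changes turned sign for Zp2 at E15.5 (-0.0023, normexp and quantile normalization) and at E17.5 (0.36, without slide 3), and for Zp3 at E15.5 (0.27, other probe).

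Leaving out each array gave ranges, for KO at E17.5 against E15.5, of 1.08 to 2.15 for Zp1 and 1.67 to 3.14 for Astl, and for WT of 1.80 to 3.89 for Zp3 and 3.21 to 3.79 for Astl, where the call was lost without replicate 3. At E15.5 the Zp1 range was 0.30 to 1.37. At E17.5 the ranges were -1.65 to 0.36 for Zp2, -1.90 to -0.66 for Zp3 and -0.74 to 0.15 for Astl. The Zp2 interaction ran from -2.50 to -0.48. P0 KO against E17.5 WT ran from 1.21 to 1.64 for Zp1, 1.52 to 2.64 for Zp2 and -0.0055 to 1.02 for Zp3.

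Counts of all genes called moved by over 1.5 times at E15.5 (313, against 208 with no filter, 45 with no scan day term, 145 with slide as a random block, 19 with the replicate block, 602 over single probes, 23 to 475 without single arrays, and 0 with only the stage compared by limma, where the full model had 2830 at an unadjusted p under 0.05) and at E17.5 (807, against 387 with array median scaling, 464, 350 and 168 with no filter, no scan day term and the replicate block, 188 without slide 3, 1 with only the stage compared, 1403 over single probes and 141 to 1036 without single arrays). The interaction count was 2010, against 1031 with no scan day term and 1061 with the replicate block, and 1045 to 2697 without single arrays. KO counts were 4203 at E17.5 against E15.5 (6311 over single probes, 2511 without KO replicate 3 and 2552 without WT replicate 3) and 7179 at P0 against E17.5 (10795 over single probes, 4580 without E17.5 KO replicate 2). The WT count at E17.5 against E15.5 was 5078, and 1038 without WT replicate 3. Array median scaling moved the median of all genes at P0 to 0.14, and the share of calls that were higher to 73.3% in place of 53.1%. Signals near background limit every value of Astl and Zp1 before P0.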
